A study of Homo sapiens with 6 samples.

Results

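The genes described here copy and divide the genome. They were taken as a fixed list of 44 symbols, 21 for DNA replication and the G1/S transition and 23 for mitosis, and 43 of them were matched to a gene identifier of the count tables, which hold 57209 rows, 1 per annotated gene. UHRF1 could not be matched to an identifier and is not analysed here, which leaves 20 replication and 23 mitosis genes. Each gene also brought every row whose exons overlap its exons on the other DNA strand. There were 18 such rows, opposite 14 of the 43 genes, and their values were kept apart from those of the genes.

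The libraries came from MB157, an established cell line of triple-negative breast cancer, a tumour type defined by little or no oestrogen receptor, progesterone receptor and HER2. All cells were MB157-Cas9, which carry the Cas9 nuclease and were grown under puromycin, although the series' design text says instead that the line stably expresses SOX9. Cells were given either a control sgRNA or one that directs Cas9 to SOX9, a transcription factor, were kept for 4 days, and were sorted for the top 50% by sgRNA expression. Each group has 3 libraries of total RNA, which the labels call technical replicates, so p-values measure only the spread between these libraries. Guide sequences are not given in the sources used here.

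The 6 libraries held 776125 to 1018854 counts. In the SOX9 sgRNA libraries 20207 to 21082 rows had a count, against 18326 to 18818 in the control libraries. SOX9 itself had 38, 52 and 44 counts in control libraries 1 to 3 and 37, 39 and 60 in SOX9 sgRNA libraries 1 to 3, and the groups overlapped (log2 fold change -0.22, SE 0.26, adjusted p = 0.70, edgeR's quasi-likelihood test). Across the 7959 rows with enough counts to test, 2.99% were called higher and 6.02% lower with the SOX9 sgRNA at an adjusted p under 0.05. The 10 genes listed as breast epithelial markers include VIM, for vimentin, which is not particular to epithelium. Of these 10 genes 9 could be tested, of which KRT7, KRT19 and VIM were called lower and 0 higher. The call of KRT7 was lost in 4 of 12 alternative fits, with totals scaling and without control 1, SOX9 sgRNA 1 or SOX9 sgRNA 3 (-0.96 to -0.79). Of the 9 tested, 6 had a log2 fold change below 0, and the median was -0.68. KRT5 (log2 fold change 0.41), KRT18 (0.33) and KRT8 (0.11) had values above 0 and did not pass. The groups did not overlap for 4 that were lower and for 1 that was higher, KRT5. Over all tested rows these shares were 12.8% and 11.7%. ESR1, for the oestrogen receptor, had 0 to 7 counts per library, PGR 3 to 7, and ERBB2, for HER2, 141 to 213, a row that also has an exon opposite another gene. Of 6 immune markers 2 could be tested, with log2 fold changes of 0.74 and 0.90. edgeR called 0 of them (lowest adjusted p = 0.19), and 1 had an unadjusted p under 0.05, as did 20.5% of all tested rows. PTPRC and CD3E, which mark blood cells, had at most 1 count in a library, CD14 had 0 to 4 and NKG7 0 to 5. CD68, a macrophage marker, had 11 to 36 counts and was higher without overlap (log2 fold change 0.74), but did not pass. Its row has an exon opposite another gene, and its part in the results was not tested. The endothelial genes CDH5 and VWF had 0. Values are counts, or CPM, which are counts scaled to a common library size after TMM normalisation, with the SD over the 3 libraries of a group.

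As background, a cell in G1 loads the MCM2 to MCM7 ring, the replicative helicase, onto origins with CDC6 and CDT1. Cyclin E and E2F factors then start S phase, and many replication genes are switched on by E2F proteins at their promoters. Genes of mitosis peak later, and many are controlled through a cell cycle homology region (CHR) and CCAAT boxes close to the start. Both sets are high in dividing tumour cells and near silent in resting tissue. In RNA from a bulk sample, fewer dividing cells and less RNA per dividing cell cannot be told apart.

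No gene of either set passed the test. Of the 20 replication genes 10 had enough counts to test, and edgeR's quasi-likelihood test called 0 higher and 0 lower, with 3 of the 10 at an unadjusted p under 0.05. Of the 23 mitosis genes 17 could be tested, again with 0 higher and 0 lower, and 1 had an unadjusted p under 0.05. DESeq2 also called 0 in each set. By comparison, 20.5% of all tested rows had an unadjusted p under 0.05. The median log2 fold change was -0.26 over the 10 replication genes and 0.06 over the 17 mitosis genes, against 0.01 over all tested rows. The summed CPM of the 20 replication genes was 635 ± 19.3 (SD, n = 3) in control and 599 ± 51.3 in SOX9 sgRNA libraries, and that of the 23 mitosis genes 612 ± 10.3 and 621 ± 38.1. For both sets the libraries of the groups overlapped.

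**Figure D1:**
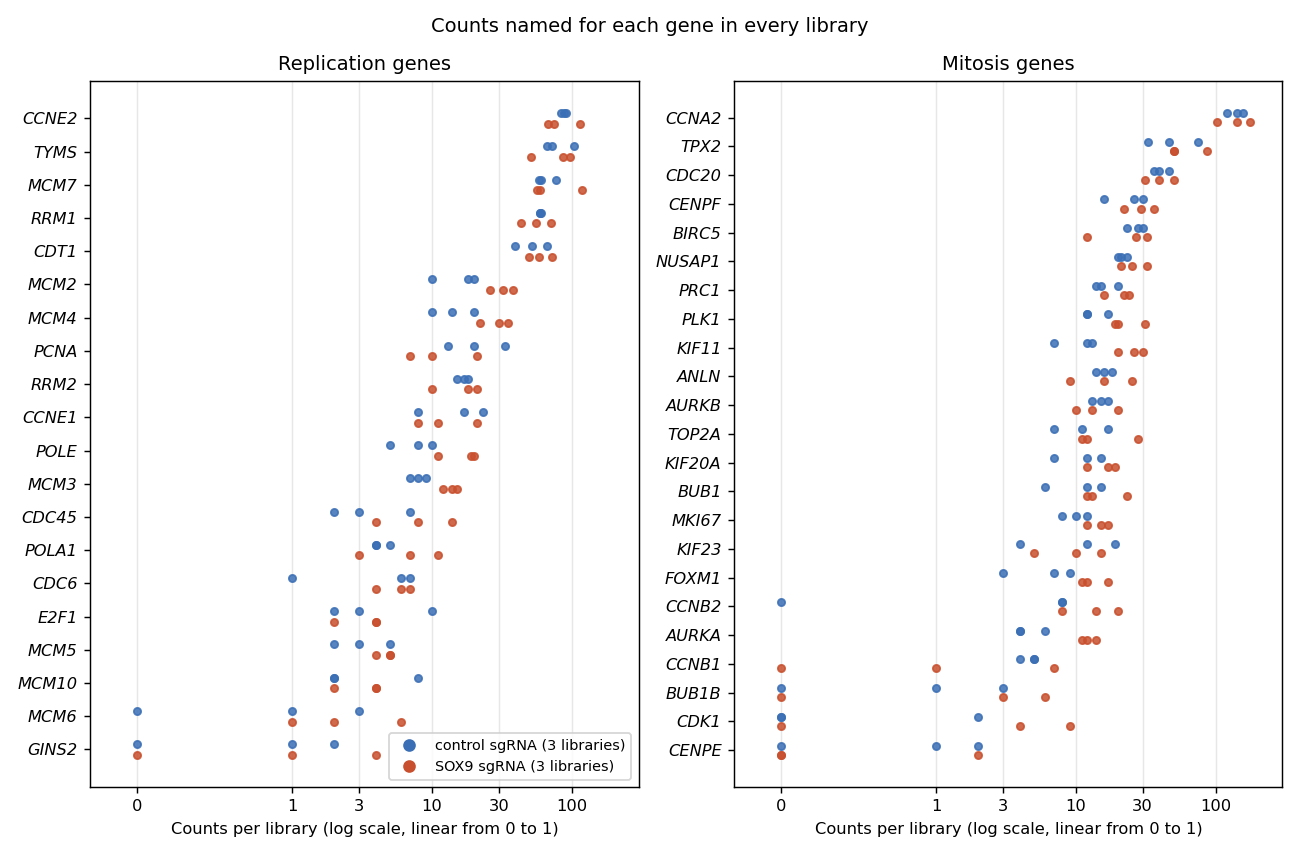
Counts named for each gene (x axis, counts per library on a log scale that is linear from 0 to 1) in the 3 control sgRNA libraries (blue) and the 3 SOX9 sgRNA libraries (red), with replication genes left and mitosis genes right, ordered by mean. CCNE2 and CCNA2 lead the sets, GINS2 and CENPE have 0 to 4 and 0 to 2 counts, and in most genes the colours overlap.

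The replication genes began with the helicase. MCM2 had 18, 20 and 10 counts in the control and 32, 26 and 38 in the SOX9 sgRNA libraries. MCM4 had 14, 20 and 10 against 35, 22 and 30. MCM3, which had too few counts to test, had 8, 9 and 7 against 14, 15 and 12. In CPM every SOX9 sgRNA library was above every control library for these 3 subunits of the 6-part ring. Over all tested rows, which do not include MCM3, 11.7% were higher without overlap. For MCM3 the gap was narrow, with SOX9 sgRNA library 3 at 11.68 CPM and control library 2 at 11.43. MCM2 was at 21.3 ± 6.01 CPM in control and 36.4 ± 2.42 in SOX9 sgRNA libraries (log2 fold change 0.76, SE 0.35, adjusted p = 0.18), so the difference did not pass the threshold. MCM4 had a log2 fold change of 0.76 as well (SE 0.37, adjusted p = 0.22).

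The other helicase subunits did not show that separation. MCM7 had the highest level of the ring per kb of exon, at 19.8 CPM per kb, though AP4M1 lies opposite 8.94% of its exon length. MCM7 had 77, 60 and 58 counts against 59, 56 and 119, with a log2 fold change of 0.00 (SE 0.22). MCM5 had 3, 2 and 5 counts against 5, 4 and 5, and MCM6 had 0, 1 and 3 against 1, 2 and 6. At these counts no difference could be detected in MCM5 or MCM6. MCM10 and CDC45, which help to activate the helicase, had 2 to 8 and 2 to 14 counts per library. GINS2, a subunit of the same active helicase, had 0 to 4.

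Of the licensing factors, CDT1 had 66, 52 and 39 counts against 58, 49 and 72 (log2 fold change -0.05, SE 0.24). CDC6, its partner in loading the ring, had only 1, 7 and 6 against 4, 6 and 7 and was not tested. PCNA, the sliding clamp that holds the polymerase on DNA, had the lowest fold change of the set. Its counts were 13, 33 and 20 in control and 7, 10 and 21 in SOX9 sgRNA libraries, or 29.3 ± 12.3 and 14.0 ± 6.06 CPM. The groups overlapped, because SOX9 sgRNA library 3 lay above control library 1 (log2 fold change -1.04, SE 0.42, adjusted p = 0.11). The polymerase genes POLE and POLA1 were at 0.904 and 1.09 CPM per kb, with no exon opposite. The median was 2.76 over listed genes with no exon opposite. Over protein-coding genes with a count and no exon opposite it was 1.01. POLE, the leading-strand polymerase, had 8, 10 and 5 counts against 20, 19 and 11, but its groups overlapped in CPM. POLA1, which makes primers, had 4, 5 and 4 against 11, 3 and 7. Neither was tested.

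Nucleotide supply rests on RRM1 and RRM2, the subunits of ribonucleotide reductase, and on TYMS, which makes thymidylate. RRM1 had 59, 60 and 59 counts against 55, 43 and 71, which is 79.9 ± 4.43 CPM in control and 63.7 ± 6.96 in SOX9 sgRNA libraries. Each SOX9 sgRNA library was below each control library in CPM, though not in raw counts, and the difference did not pass (log2 fold change -0.32, SE 0.23, adjusted p = 0.47). RRM2 had 18, 15 and 17 against 21, 18 and 10. TYMS had 66, 103 and 72 against 86, 51 and 97, or 107 ± 21.6 and 88.1 ± 19.4 CPM (log2 fold change -0.28, SE 0.20, adjusted p = 0.47).

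The cyclin E genes, whose products drive entry into S phase, differed in counts. CCNE2 was the replication gene with the highest CPM, at 118 ± 10.9 in control and 96.5 ± 13.5 in SOX9 sgRNA libraries. Its counts were 84, 88 and 91 against 75, 67 and 115 (log2 fold change -0.28, SE 0.19, adjusted p = 0.42). INTS8 lies opposite 37.0% of CCNE2's exon length, and whether the counts came from CCNE2 or INTS8 cannot be told apart. CCNE1 had 23, 17 and 8 against 11, 8 and 21. E2F1, which switches on S-phase genes, had 10, 2 and 3 against 2, 4 and 4 and was not tested. Among the 10 tested replication genes, the groups did not overlap for 2 that were higher (MCM2 and MCM4) and 1 that was lower (RRM1). Over all tested rows the groups did not overlap for 11.7% that were higher and 12.8% that were lower.

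A larger share of replication promoters than of all promoters carried letters bound by E2F proteins. RefSeq promoter windows (GRCh38.p14, 250 bases before to 50 after the start) were found for 17 of the replication genes, in 23 windows because some genes have several starts, and for 19 mitosis genes in 21 windows. An E2F motif (TTTCCCGC, TTTCGCGC, TTTGCCGC or TTTGGCGC, on either strand) stood in 12 of the 23 replication windows, 52.2%, in 3 of the 21 mitosis windows, 14.3%, and in 3.31% of all 35116 windows. A match is a description of letters, and binding was not measured. Shown are MCM2 (chr3:127598161-127598460, plus strand), whose groups did not overlap, and TYMS (chr18:657403-657702, plus strand), which lies opposite rows that changed. The capitals mark the E2F motif. In MCM2 it runs through a pair of overlapping matches on opposite strands, and in TYMS it stands on the minus strand as GCGGGAAA.
MCM2: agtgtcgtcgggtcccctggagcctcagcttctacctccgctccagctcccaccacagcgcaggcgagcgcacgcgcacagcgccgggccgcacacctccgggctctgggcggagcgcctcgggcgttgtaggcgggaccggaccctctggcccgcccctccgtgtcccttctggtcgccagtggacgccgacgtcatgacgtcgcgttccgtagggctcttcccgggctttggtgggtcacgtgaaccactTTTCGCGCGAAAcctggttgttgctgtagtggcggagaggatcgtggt
TYMS: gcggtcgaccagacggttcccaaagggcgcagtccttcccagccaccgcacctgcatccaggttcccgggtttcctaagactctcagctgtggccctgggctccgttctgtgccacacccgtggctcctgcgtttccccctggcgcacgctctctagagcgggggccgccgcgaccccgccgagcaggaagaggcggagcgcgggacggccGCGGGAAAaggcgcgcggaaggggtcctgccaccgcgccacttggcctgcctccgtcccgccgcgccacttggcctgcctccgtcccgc

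Mitotic kinases come next. AURKA, which builds the spindle poles, had 4, 6 and 4 counts in control and 11, 12 and 14 in SOX9 sgRNA libraries, or 6.24 ± 1.21 and 14.2 ± 1.26 CPM. The groups did not overlap, but the gene rests on 51 counts in all and did not pass the threshold (log2 fold change 1.15, SE 0.65, adjusted p = 0.31). PLK1, a kinase of mitotic entry and exit, had 12, 17 and 12 counts against 19, 20 and 31, also without overlap (log2 fold change 0.53, SE 0.39, adjusted p = 0.48). AURKB, the kinase of the chromosomal passenger complex, had 17, 15 and 13 against 13, 10 and 20, and its groups overlapped. BUB1, of the spindle checkpoint, had 15, 12 and 6 against 23, 12 and 13. BUB1B, its relative in the checkpoint, had 0 to 6 counts and shares exon sequence with PAK6 on the same strand, so it is uncertain.

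KIF11, the kinesin that pushes the spindle poles apart, had 12, 7 and 13 counts in control and 20, 26 and 30 in SOX9 sgRNA libraries. Every SOX9 sgRNA library was higher, at 29.0 ± 4.85 CPM against 14.5 ± 5.07, and the adjusted p was 0.12 (log2 fold change 1.00, SE 0.41). KIF11 was the mitosis gene with an unadjusted p under 0.05, and it was called (1.18, adjusted p = 0.045) only when libraries were scaled by their totals in place of TMM. The other kinesins did not separate. KIF20A had 12, 15 and 7 against 12, 17 and 19, and KIF23, which works with the midzone bundler PRC1 in cytokinesis, had 12, 19 and 4 against 10, 15 and 5. PRC1 itself had 14, 15 and 20 against 16, 22 and 24.

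The cyclins of G2 and mitosis spanned the set's range of counts. CCNA2, cyclin A2, had the highest level of all 43 genes, both in CPM and per kb (62.0 CPM per kb). It had 157, 121 and 141 counts against 142, 102 and 176. Its log2 fold change was -0.24 (SE 0.15, adjusted p = 0.39). EXOSC9 lies opposite 9.08% of CCNA2's exon length, and whether the counts came from CCNA2 or EXOSC9 cannot be told apart. CCNB1 and CDK1, which together form the kinase that triggers mitosis, were at the other end. CCNB1 had 5, 5 and 4 counts against 1, 0 and 7, and CDK1 had 2, 0 and 0 against 4, 0 and 9, so neither could be tested. CCNB2 had 0, 8 and 8 against 8, 14 and 20. CENPE, a centromere motor, had 0, 2 and 1 against 2, 0 and 0, the lowest of the 43.

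Proliferation markers in common use gave few counts in these libraries. The median of the mean counts per library was 14.3 over the 43 listed genes and 5.33 over protein-coding genes with a count. MKI67, for the Ki-67 protein, had 10, 8 and 12 against 17, 12 and 15 (log2 fold change 0.31, SE 0.49, adjusted p = 0.79). TOP2A, a topoisomerase, had 7, 11 and 17 against 12, 11 and 28. FOXM1, a transcription factor of G2/M genes, had 9, 7 and 3 against 17, 12 and 11. Its groups overlapped in CPM, and it was not tested. The spindle assembly factor TPX2 had 46, 75 and 33 against 50, 50 and 87 (0.04, SE 0.24), and CDC20, which activates the anaphase-promoting complex, had 46, 36 and 39 against 50, 31 and 39 (-0.24, SE 0.28). CENPF, NUSAP1 and ANLN, for a kinetochore protein, a spindle protein and a scaffold of the cleavage furrow, had fold changes of 0.06, 0.05 and -0.20 on the log2 scale, each less than its SE. BIRC5, survivin, a member of the passenger complex, had 23, 30 and 28 against 32, 12 and 27 (-0.43, SE 0.34, adjusted p = 0.51).

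The windows of the mitosis genes held another set of letters. A CHR motif (TTTGAA or TTCGAA, either strand) stood in 15 of 21 mitosis windows, 71.4%, in 2 of 23 replication windows, 8.70%, and in 16.4% of all windows. A CCAAT box stood in 85.7% of mitosis windows, 78.3% of replication windows and 34.6% of all. Shown are PLK1 (chr16:23678639-23678938, plus strand) and KIF11 (chr10:92592880-92593179, plus strand), 2 of the 3 tested mitosis genes whose groups did not overlap. Capitals mark the CCAAT box, which is followed by the CHR motif. In KIF11 both stand on the minus strand, as ATTGG and TTCAAA.
PLK1: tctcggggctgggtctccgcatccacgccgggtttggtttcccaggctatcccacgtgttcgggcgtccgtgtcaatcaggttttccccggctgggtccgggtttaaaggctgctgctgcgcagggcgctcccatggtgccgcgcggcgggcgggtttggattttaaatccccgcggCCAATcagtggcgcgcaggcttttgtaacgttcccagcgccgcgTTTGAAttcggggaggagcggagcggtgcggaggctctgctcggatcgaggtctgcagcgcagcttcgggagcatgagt
KIF11: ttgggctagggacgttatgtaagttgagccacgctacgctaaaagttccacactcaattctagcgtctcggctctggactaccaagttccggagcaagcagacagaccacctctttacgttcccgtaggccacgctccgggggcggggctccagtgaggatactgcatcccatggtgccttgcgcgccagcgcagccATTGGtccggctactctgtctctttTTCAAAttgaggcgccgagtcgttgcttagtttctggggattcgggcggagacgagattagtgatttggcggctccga

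Across the 17 tested mitosis genes, the groups did not overlap for 3 that were higher (AURKA, PLK1 and KIF11) and 0 that were lower. With MCM2 and MCM4, 5 of the 27 tested genes were higher without overlap and 1, RRM1, was lower. The median fold change was lower at higher levels. In the 9 tested members with the fewest reads the median log2 fold change was 0.26, in the 11 at a middle level 0.06, and in the 7 with the most -0.24. Over all tested rows of these levels the medians were 0.09, 0.04 and -0.06. Genes higher without overlap were 1 of 9 at the lowest level (11.1%, against 9.93% of all rows of that level), 4 of 11 at the middle (36.4% against 11.6%) and 0 of 7 at the highest (against 13.4%). The SOX9 sgRNA libraries also had more rows with a count and higher TMM factors (1.05 to 1.08, against 0.936 to 0.940 in control), and the part of these in the differences was not tested.

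**Figure D2:**
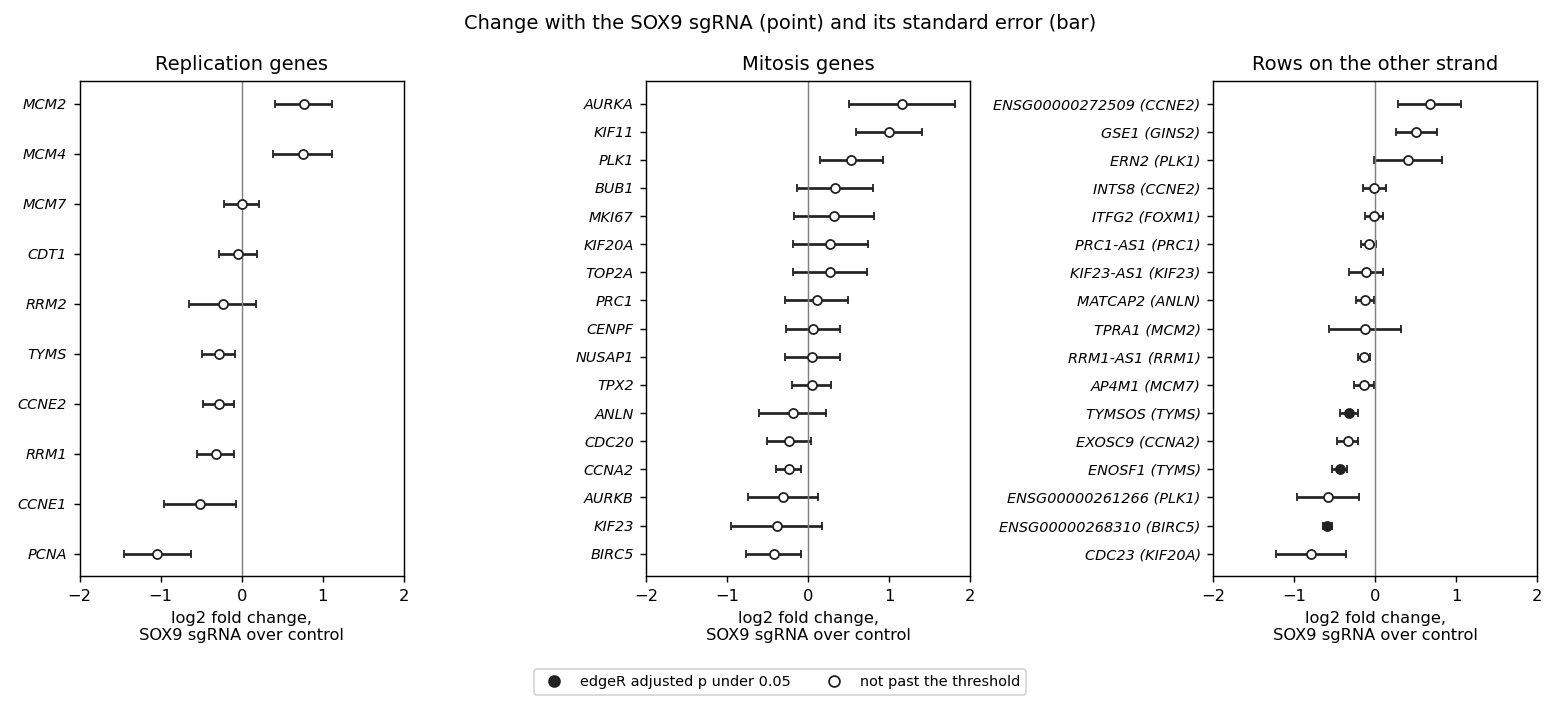
Log2 fold change of SOX9 sgRNA over control (x axis; points, with bars for the standard error) of the tested replication genes, mitosis genes and rows on the other strand, the gene each row lies opposite in brackets. Filled points had an edgeR adjusted p under 0.05, which 0 of 27 genes and 3 of 17 rows did, all 3 lower.

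The strand is part of these values. The library kit keeps the strand of the RNA, and the file headers record that reads were counted under strand setting 1, so that a read is named for the gene on 1 strand only. With a stranded kit counted under the setting for the other strand, reads of a gene are named for any row opposite its exons, or for none. Of the 18 pairs of a listed gene and a row opposite it, the row had the higher level per kb in 13, 72.2%, with a median ratio of 6.31. Over 6521 such pairs of any protein-coding gene the share was 66.0% and the median ratio 3.29. The 29 listed genes with no exon opposite had a median of 2.76 CPM per kb and the 14 with one 5.29, while the 18 opposite rows had 50.4. Whether reads named for such a row came from the row or from the gene across from it cannot be told apart in a table of counts.

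**Figure D3:**
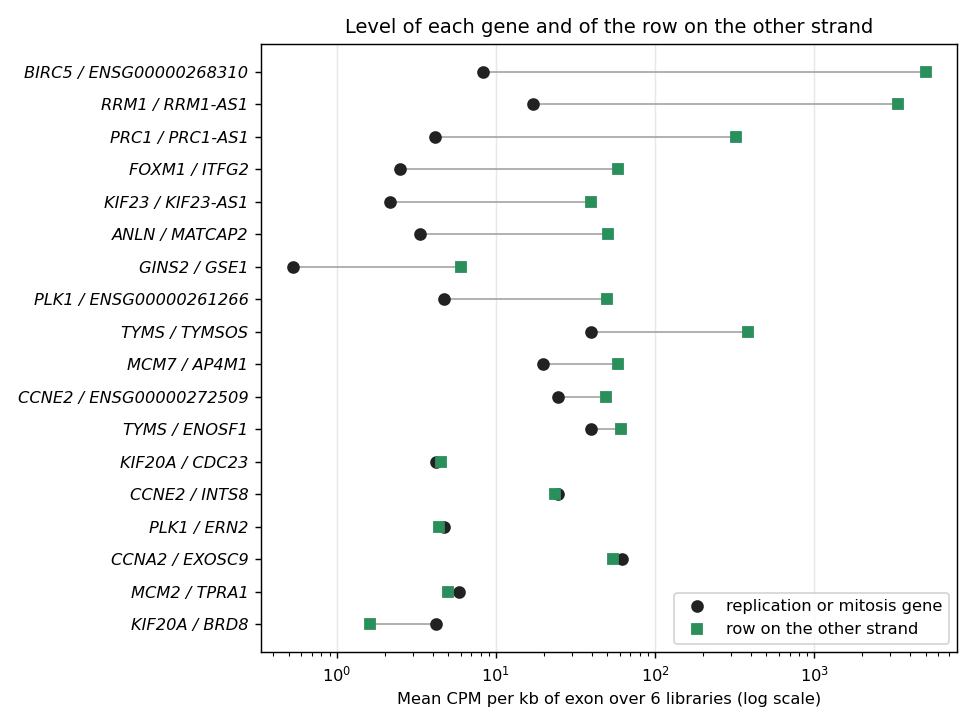
Mean CPM per kb of exon over 6 libraries (x axis, log scale) of each listed gene that has an exon opposite it (circle) and of the row on the other strand (square), joined by a line. The rows opposite BIRC5 and RRM1 lie 606 and 195 times above the genes, and the lowest pair, KIF20A and BRD8, runs the other way.

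The largest of these rows lies opposite BIRC5. ENSG00000268310 (GRCh37 chromosome 17, 76210462 to 76220740, minus strand) is nested in the survivin gene, on the plus strand, and 1006 of its 1011 exon bases lie on BIRC5 exons. It had 4577, 4807 and 4235 counts in control and 3448, 3195 and 3950 in SOX9 sgRNA libraries, rank 16 of all rows by mean CPM. It fell: control libraries were at 6101 ± 11.0 CPM and SOX9 sgRNA libraries at 4050 ± 177 (SD, n = 3), a log2 fold change of -0.59 (SE 0.056, adjusted p = 1.63e-13), and the groups did not overlap. It was also called lower in each of the 12 alternative fits, with log2 fold changes from -0.62 to -0.41. Per kb it stood 606 times above BIRC5 itself, whose groups overlapped.

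TYMS has a row at each end on the other strand. ENOSF1, an enzyme gene that meets TYMS tail to tail with 465 bases of shared exon (chromosome 18, 670324 to 712676, minus strand), had 546, 542 and 565 counts against 464, 411 and 562. It fell by 0.44 on the log2 scale (SE 0.091, adjusted p = 2.75e-04), with control at 743 ± 63.3 CPM and SOX9 sgRNA at 547 ± 12.3. That call was lost when libraries were scaled by their totals (-0.26, adjusted p = 0.051), the only 1 of 12 alternative fits that ended it. TYMSOS, a noncoding row that meets TYMS head to head over 183 bases (641320 to 658340), had 349, 294 and 286 against 298, 254 and 316, or 417 ± 46.6 and 332 ± 25.7 CPM. Its log2 fold change was -0.33 (SE 0.11, adjusted p = 0.046). The call of TYMSOS was lost in 9 of 12 alternative fits, among them those without control 1, control 3, SOX9 sgRNA 2 or SOX9 sgRNA 3 (-0.34 to -0.24). Each also has an exon opposite 1 further gene, and most of each row's exon length lies outside TYMS.

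**Figure D4:**
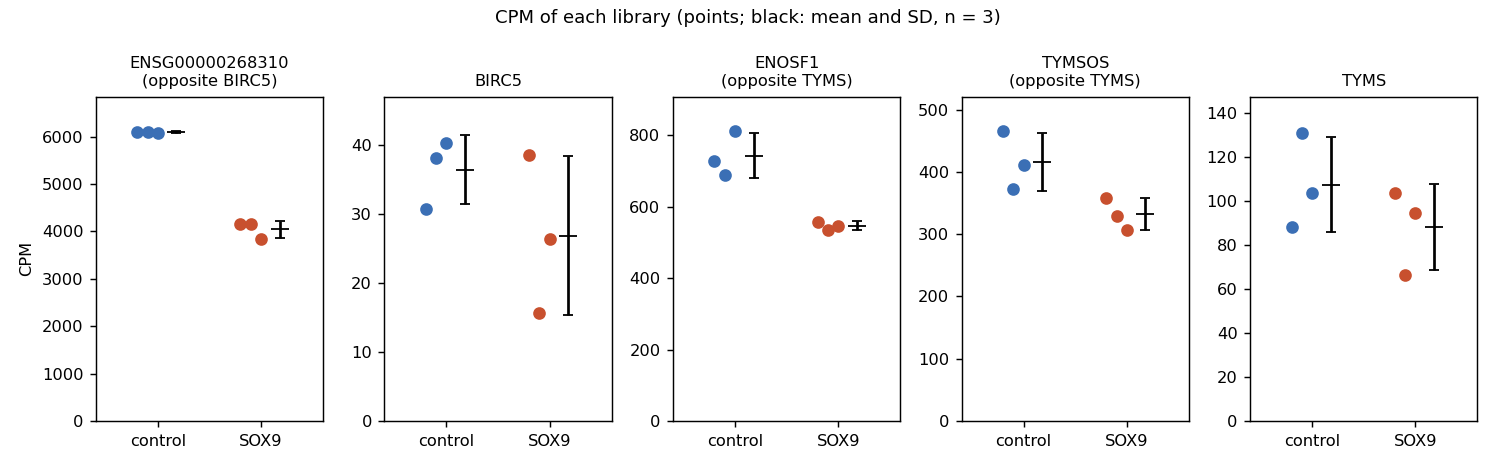
CPM of each library (y axis, from 0) for the 3 rows on the other strand that passed the test and for the genes they lie opposite, with blue for control sgRNA, red for SOX9 sgRNA and black for mean and SD (n = 3). The groups are apart in ENSG00000268310, ENOSF1 and TYMSOS and overlap in BIRC5 and TYMS.

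In all, 3 of the 17 tested opposite rows were called lower and 0 higher, and 2 of the 3 share TYMS. Over the 3871 tested rows that lie opposite a protein-coding gene, 9.02% were called lower and 3.69% higher. Of the 17, 14 had a fold change below 0 and 3 above, with a median log2 fold change of -0.13, against -0.0023 over the 3871. The groups did not overlap for 4 rows that were lower and 1 that was higher, beside 16.2% and 12.8% of the 3871. RRM1-AS1, nested in RRM1 with 63 bases of shared exon, had 837, 1007 and 875 counts against 855, 855 and 1211 (-0.14, SE 0.078, adjusted p = 0.32). EXOSC9, an exosome gene that meets CCNA2 tail to tail, had 232, 231 and 181 against 166, 161 and 277 (-0.34, SE 0.13, adjusted p = 0.093), and was called lower without SOX9 sgRNA 3 (-0.49). PRC1-AS1 had 372 to 642 counts per library and stood 77.9 times above PRC1 per kb, with a log2 fold change of -0.08.

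The remaining rows showed smaller or noisier differences. MATCAP2, opposite ANLN, was at 357 ± 16.0 CPM in control and 327 ± 2.54 in SOX9 sgRNA libraries without overlap, but did not pass (-0.13, SE 0.11). AP4M1 opposite MCM7, ITFG2 opposite FOXM1, INTS8 opposite CCNE2 and KIF23-AS1 opposite KIF23 had log2 fold changes between -0.14 and -0.01, each near or under its SE. ENSG00000272509, with 4 bases opposite CCNE2, was the row whose groups did not overlap upward (11, 17 and 11 counts against 22, 24 and 27, adjusted p = 0.33). GSE1 shares 7 bases with GINS2 and TPRA1 29 with MCM2, so reads named for these rows lie mostly outside the listed genes. GSE1 had a log2 fold change of 0.51 (SE 0.26), TPRA1 -0.13, ERN2 and ENSG00000261266, both opposite PLK1, 0.40 and -0.59, and CDC23, opposite KIF20A, -0.79 (SE 0.43). BRD8, also opposite KIF20A, had 4 to 12 counts and was not tested.

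**Figure D5:**
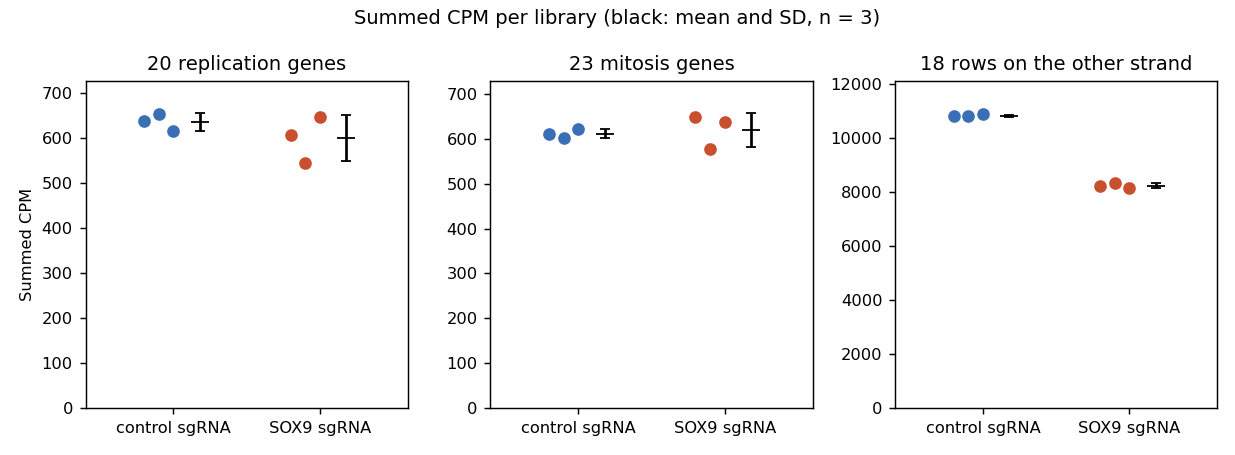
Summed CPM per library (y axes, each from 0) of the 20 replication genes, the 23 mitosis genes and the 18 rows on the other strand, with blue for control sgRNA, red for SOX9 sgRNA and black for mean and SD (n = 3). The groups overlap for both gene sets, at about 600 CPM, and stand apart for the rows, at 10826 and 8235 CPM.

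The summed CPM of the 18 rows was 10826 ± 42.6 in control and 8235 ± 95.2 in SOX9 sgRNA libraries. Without ENSG00000268310 the sums were 4725 ± 53.3 and 4185 ± 105, and the groups still did not overlap. These sums still include ENOSF1 and TYMSOS, which were also called lower. No such sum was made for rows opposite other genes. The 43 genes themselves summed to 635 and 612 CPM in the control libraries, for replication and mitosis.

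Other genes of the same processes were read from further lists. Of 60 other replication genes 24 could be tested, with 0 higher and 0 lower (2 at an unadjusted p under 0.05, and 0 called by DESeq2) and a median log2 fold change of -0.11. Of 70 other mitosis genes 29 could be tested, with 0 higher, 2 lower and a median of -0.27. SPC24, a kinetochore subunit, had 169, 140 and 140 counts against 68, 79 and 103 and fell from 202 ± 23.9 to 94.9 ± 11.4 CPM (-1.08, SE 0.17, adjusted p = 8.63e-07). INCENP, the scaffold of the passenger complex that holds AURKB and BIRC5, had 60, 78 and 49 against 39, 27 and 49 and fell (-0.94, SE 0.25, adjusted p = 0.00693), a call lost without control 2 or without SOX9 sgRNA 2.

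Of 34 genes that control the G1/S step, 16 could be tested, with 0 higher and 2 lower. MYC, a transcription factor of growth, had 84, 80 and 71 counts against 50, 33 and 47 (-1.08, SE 0.23, adjusted p = 3.24e-04). CCND1, cyclin D1, had 42, 45 and 44 against 23, 20 and 33 (-1.03, SE 0.29, adjusted p = 0.014), a call lost without SOX9 sgRNA 2. The shares called lower, 2 of 29 and 2 of 16, stand beside 6.02% over all tested rows.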

How the data were processed

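RNA was sequenced from 3 control sgRNA and 3 SOX9 sgRNA libraries of MB157-Cas9 cells, made with a stranded total RNA kit, per the labels' protocols. The authors deposited 1 table of raw counts per library. The submitters' processing notes name STAR 2.7.10a, Subread 1.6.2, GRCh37 and hg19; per the file headers, featureCounts counted read pairs over exons of Ensembl release 75 with strand setting 1, and a read could count for several rows.

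The counts were fitted with edgeR 4.0.16 in R 4.3.3 (filterByExpr, TMM, robust quasi-likelihood fit, prior count 0.125), with Benjamini-Hochberg adjustment of p-values across the 7959 rows tested and a threshold of 0.05. The SE is the log2 coefficient divided by the square root of the F statistic. Exon overlaps on the other strand of at least 1 base were found with bedtools 2.31.1. The fit was tested on simulated data first. Symbols came from a table of gene names and gene types from a GENCODE annotation of a later build, both matched by Ensembl identifier; 38994 of the 57209 rows had a symbol. The alternatives used DESeq2 1.42.0, other scaling, other filters, a replicate block and leaving out each library.

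The genes named were SOX9, members and opposite rows past the threshold or without overlap between groups, the most and least abundant members, opposite rows with a mean of 10 counts, and up to 4 called genes of each further list. Other members were added as descriptions. The members and lists were chosen with earlier results of these data known. No p-value was computed over a list. Items withheld for evaluation are not reported here.

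Same-numbered libraries did not deviate together across the groups, so the numbers were not taken as pairs. Chromosome positions of rows are in GRCh37 as the files give them, and promoter windows are RefSeq's in GRCh38.p14. With totals of 776125 to 1018854 counts, 16 of the 43 genes were below the filter, and small differences there could not be detected. The reason for their low counts was not tested. PCR reads without molecular identifiers are not independent molecules.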

Additional observations from a re-analysis of the deposited data

How the results depend on the processing

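Over 12 alternative fits, the only tested member called in any was KIF11, with libraries scaled by totals. That scaling moved the median of all genes from 0.01 to 0.19, and changes are best read relative to it. With it, 625 genes were called higher and 249 lower in place of 238 and 479, 1 mitosis member and 1 other replication gene were called higher, 1 opposite row was called lower, and the medians were -0.075 for replication and 0.24 for mitosis genes. DESeq2 called 130 genes higher, and no filter on low counts 151. The replication median was -0.0094 with no filter, and the mitosis median -0.050 with the stricter filter. Leaving out each library gave 161 to 208 genes higher and 345 to 407 lower, a mitosis median of -0.0025 to 0.14, 0 to 1 other replication genes higher (1 without control 3), 1 to 2 other mitosis genes lower (1 without control 2) and 1 to 2 G1/S genes lower (1 without SOX9 sgRNA 2). The cause was not tested.

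With a replicate block, 175 genes were called higher, 399 lower, 0 members and 2 opposite rows (TYMSOS was lost). Same-numbered libraries correlated at -0.003, 0.019 and -0.011. A minimum overlap of 50 bases left 13 tested opposite rows, 3 of them lower. Low counts set the limit: 15 of the 43 genes averaged under 10 counts.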

Other observations

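Rows opposite the further lists, chosen after their values were seen, also changed. Opposite the other replication genes 2 of 20 tested rows were called higher and 3 lower, opposite the other mitosis genes 1 of 22 higher and 0 lower, and opposite the G1/S genes 1 of 12 higher and 3 lower, beside 3.69% and 9.02% of all rows opposite a protein-coding gene. LTO1, which meets CCND1 tail to tail, had 528, 558 and 501 counts in control and 319, 301 and 447 in SOX9 sgRNA libraries (log2 fold change -0.81, edgeR adjusted p = 3.31e-10). ENSG00000254208, nested in the E2F5 gene, had 71, 78 and 66 against 26, 28 and 35 (-1.50, SE 0.25). Both were called lower in each of the 12 alternative fits, and the other 8 called rows were lost in at least 1.

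ENSG00000237485, which has 679 of its 853 exon bases opposite SGO1, the protector of sister chromatid cohesion, had 563, 569 and 617 counts against 830, 711 and 911 (0.25, SE 0.085, adjusted p = 0.049), and its groups overlapped in CPM. SGO1 itself averaged 1 count per library.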
